A study of Caenorhabditis elegans with 6 samples.

Results

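In worms exposed to a low dose mixture of pesticides (LDM), the genes irg-4 (F08G5.6), C29F3.7, Y47H9C.1 and K08D8.6 were followed across all arrays. They were taken by sequence name, and are 4 of the 18889 genes on the array, each with 1 probe among 22490 gene probes. All 4 were among the 7989 genes that could be tested. The genes were chosen by their ratios of LDM over control on these same arrays, so these ratios are given as a description, with no test.

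LDM worms were Caenorhabditis elegans of the wild type strain N2 grown from eggs for 72 h at 16 °C on agar holding chlorpyrifos (CPF) at 0.5 mg/ml together with diazinon (DZN) at 1 mg/ml, as the labels write these doses (the study's methods write them per litre). Control worms grew on agar with acetone, the solvent of both pesticides, for the same time and at the same temperature. Both populations fed on the OP50 strain of Escherichia coli and were taken whole at the L3/L4 larval stage. RNA of LDM and of control worms was set side by side on 6 two-colour arrays, 3 with LDM in Cy5 and 3 with LDM in Cy3, so that each array gives one ratio of LDM over control. By the study's methods the 6 arrays hold independent biological samples, but the scanner output gives one control number to both replicate 3 with LDM in Cy5 and replicate 1 with LDM in Cy3, and whether these share a control sample was not tested.

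Chlorpyrifos and diazinon are organophosphates, insecticides that act on acetylcholinesterase, the enzyme that ends signalling at cholinergic synapses. The worm has no adaptive immunity and meets bacterial pathogens mostly in its intestine, where a p38 MAP kinase cascade ending in PMK-1, together with intestinal factors such as ELT-2, controls secreted effectors. Among these effectors are lysozymes, C-type lectins, saposin-like proteins and small proteins with CUB-like domains. The irg genes (infection response genes) were named for their rise on pathogenic bacteria, and irg-4 encodes one of the CUB-like proteins. C29F3.7, Y47H9C.1 and K08D8.6 carry only sequence names. The genes lie apart in the genome, with irg-4 and K08D8.6 on chromosome IV, C29F3.7 on chromosome V and Y47H9C.1 on chromosome I.

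Among all genes tested on these arrays, 25 (0.313%) were higher and 5 (0.0626%) lower in LDM than in control worms by limma (Benjamini-Hochberg adjusted p under 0.05), or 30 (0.376%) in all. By rank product 90 (1.13%) were higher and 33 (0.413%) lower, or 123 (1.54%) in all, and 9.33% of genes had an unadjusted limma p under 0.05 in either direction. The image software left 37.6 to 41.9% of gene spots unmarked where LDM was in Cy5, and 56.5 to 61.4% where it was in Cy3. Pairs of arrays correlated between -0.35 and 0.42 over genes. Intestinal marker genes were above background in both channels on every array (9 of 9 probes), and the 7 tested had array medians of the log2 ratio between 0.01 and 0.36, with 0 called by either tool and 0 at an unadjusted p under 0.05. The 13 sperm markers had a median log2 ratio of -0.30, with 13 of 13 below 0 and array medians between -1.20 and 0.80. The 5 yolk markers had a median of -1.09, with 5 of 5 below 0 and array medians between -2.93 and 2.44. Limma called 0 of the sperm and yolk markers (1 yolk marker, lower, at an unadjusted p under 0.05), and the rank product called 4 yolk markers lower. The 2 muscle and 2 neuron markers had medians of -0.17 and 0.00, with 0 called by either tool and 0 at an unadjusted p under 0.05. Both extremes of the yolk markers fell on arrays with LDM in Cy3, on replicate 1 the lowest and on replicate 3 the highest. The part that the makeup of the worms plays in the ratios of the 4 genes was not tested, and in RNA of whole worms fewer cells of a type and less RNA per cell cannot be told apart.

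The RNA of irg-4 was higher in LDM than in control worms on 6 of 6 arrays. With LDM in Cy5 the spot had foreground intensities of 39505, 16631 and 41838 scanner units in LDM worms, against 15847, 5650 and 17747 in control worms on replicates 1 to 3. With LDM in Cy3 the intensities were 6494, 35314 and 30533 in LDM worms, against 3969, 24945 and 22714 in control worms. The LDM channel was thus the brighter one in either dye, and LDM in Cy3 replicate 1 was the dimmest array in both channels. After normalization the log2 ratios were 1.35, 1.08 and 1.51 with LDM in Cy5 and 1.46, 1.01 and 1.09 with LDM in Cy3. Their mean was 1.25 ± 0.22 (SD, n = 6 arrays), a fold change of 2.38 that placed irg-4 31st from the top of the 7989 genes. Within the single arrays it lay between percentile 93.5 and 99.7 of the unmarked spots, in the top 5% on 5 of 6 arrays. Its percentile was lowest on LDM in Cy5 replicate 3, where its ratio was highest. Ratios of all unmarked spots spread most on that array (SD 0.83) and least on LDM in Cy3 replicate 1 (SD 0.37). The normalised levels overlapped between LDM worms (11.89 to 15.66 on the log2 scale) and control worms (10.43 to 14.30), since the level differed more between arrays than the ratio did.

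C29F3.7 was likewise brighter in LDM worms on 6 of 6 arrays. Its intensities were 2383, 5620 and 2703 in LDM worms, against 1603, 1453 and 1267 in control worms with LDM in Cy5. With LDM in Cy3 they were 6918, 7746 and 8540 in LDM worms, against 4638, 6924 and 7051 in control worms. LDM worms were thus the brighter ones in either dye, and replicate 2 showed the highest ratio of intensities with LDM in Cy5 and the lowest with LDM in Cy3. The log2 ratios were 1.29, 1.61 and 1.80 with LDM in Cy5 and 1.32, 0.64 and 1.00 with LDM in Cy3. Their mean was 1.27 ± 0.42 (SD, n = 6 arrays), or 2.42-fold, and its rank was 28 from the top. C29F3.7 was in the top 5% of the unmarked spots on 6 of 6 arrays, between percentile 96.1 and 99.7. Its normalised log2 levels in LDM worms (11.92 to 13.11) lay above all of those in control worms (10.67 to 11.74).

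Y47H9C.1 had the highest mean ratio of the 4 genes over unmarked spots. With marked spots kept its mean was 1.22, below irg-4 (1.25) and C29F3.7 (1.27). Its intensities were 1256, 379 and 760 in LDM worms, against 613, 202 and 396 in control worms with LDM in Cy5. With LDM in Cy3 they were 2094, 3386 and 2052 in LDM worms, against 1038, 1631 and 1393 in control worms. The spot on LDM in Cy5 replicate 2 was marked by the image software, with a control signal not above background, and was left out. On the 5 arrays that remained the log2 ratios were 1.72 and 1.62 with LDM in Cy5 (replicates 1 and 3) and 1.83, 1.58 and 1.29 with LDM in Cy3. All lay above 0, with a mean of 1.61 ± 0.20 (SD, n = 5 arrays) and a fitted fold change of 3.07, rank 15 from the top. The normalised log2 levels did not overlap, with 10.18 to 11.73 in LDM worms and 8.35 to 10.02 in control worms. The marked spot gave -0.74 after normalization although its LDM channel was the brighter one, because loess moved it by -2.25 from 1.52.

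K08D8.6 had the smallest difference. Its intensities were 596, 3628 and 446 in LDM worms, against 504, 2243 and 318 in control worms with LDM in Cy5, where the third spot was marked and left out. With LDM in Cy3 they were 5504, 4560 and 2595 in LDM worms, against 5113, 2964 and 3313 in control worms. The control channel was therefore the brighter one on replicate 3 of that orientation. The log2 ratios were 0.94 and 0.30 with LDM in Cy5 and 0.84, 1.13 and 0.35 with LDM in Cy3, with a mean of 0.71 ± 0.37 (SD, n = 5 arrays). The fitted fold change was 1.62, with rank 129 from the top, and the gene was in the top 5% on 3 of 5 arrays and at percentile 69.8 on its lowest array. The normalised log2 levels overlapped, with 10.56 to 12.46 in LDM worms and 9.62 to 12.17 in control worms.

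**Figure D1:**
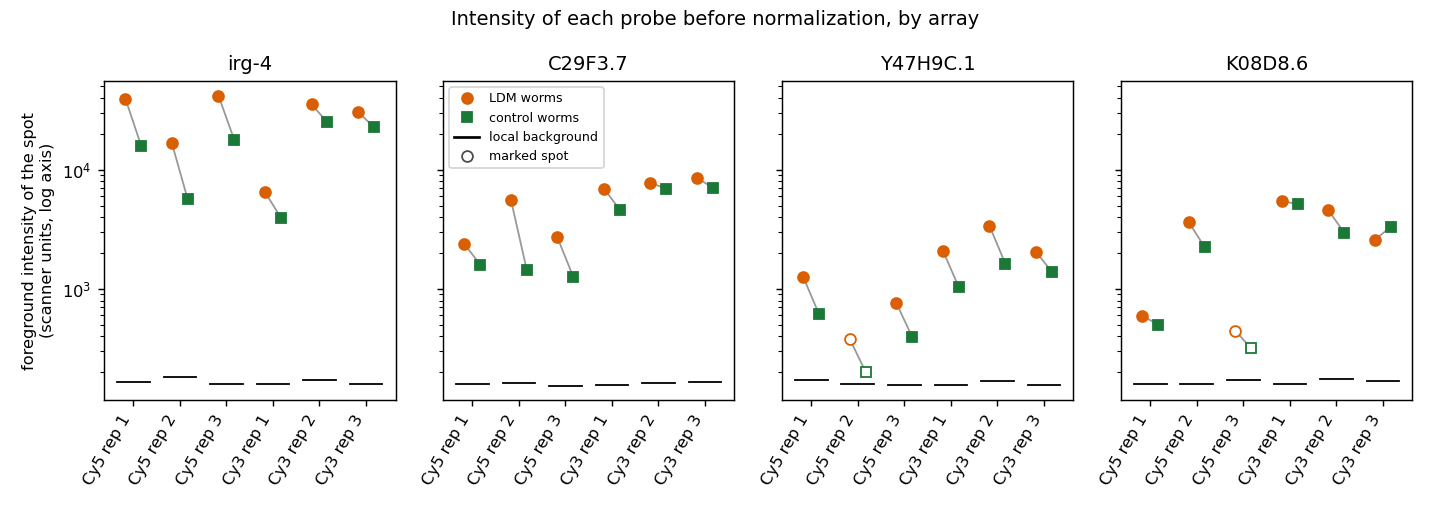
Foreground intensity of the spot of each gene (scanner units, log axis) on the 6 arrays, with LDM worms as circles and control worms as squares, the local background as a short line and marked spots as open symbols. LDM worms were above control worms on every array for irg-4, C29F3.7 and Y47H9C.1, and below them for K08D8.6 on LDM in Cy3 replicate 3 (2595 in LDM worms against 3313 in control worms).

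**Figure D2:**
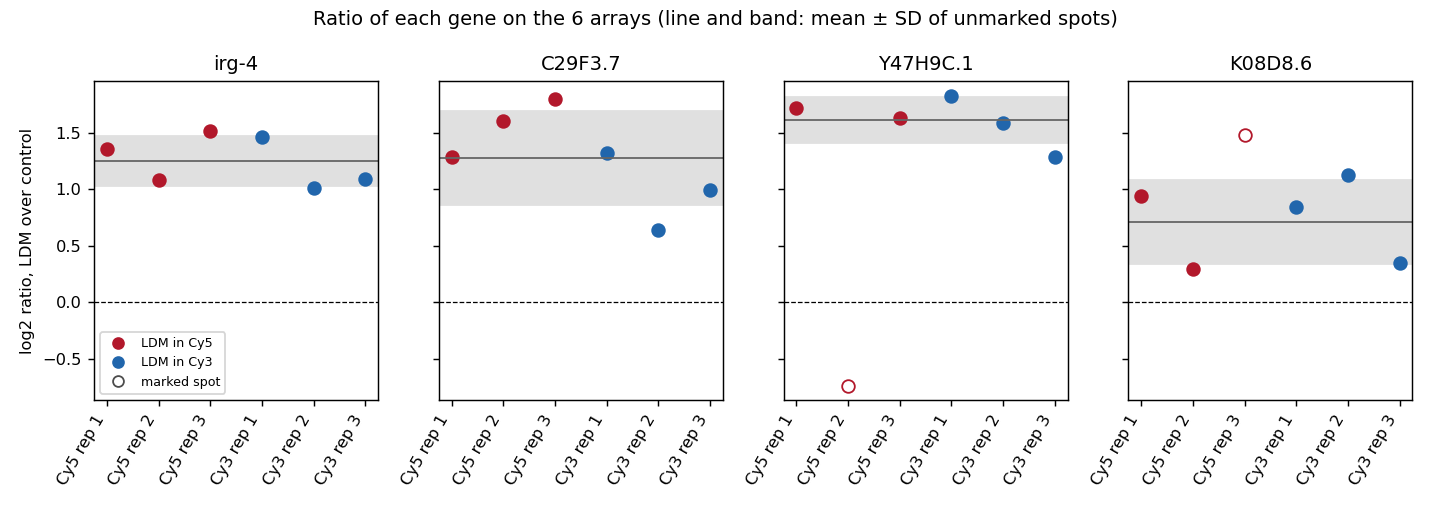
Normalised log2 ratio of LDM over control of each gene on the 6 arrays, with LDM in Cy5 in red and LDM in Cy3 in blue; the line and band are the mean ± SD of the unmarked spots, and open symbols are marked spots. All unmarked spots are above 0, and those of Y47H9C.1 lie within 1.29 to 1.83.

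By the rules applied to all genes, 3 of the 4 genes (irg-4, C29F3.7 and Y47H9C.1) were among the 0.313% called higher by limma and 4 of 4 among the 1.13% called higher by rank product. Nothing is read from these counts, since the same ratios chose the genes. The gene with the smallest ratio, K08D8.6, lay outside the limma calls. Of the genes unmarked on 6 arrays 2.43% were above control on all of them, as irg-4 and C29F3.7 were, and of those unmarked on 5 arrays 5.75% were above control on all of these, as Y47H9C.1 and K08D8.6 were.

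The gene with the highest ratio differed between arrays, with C29F3.7 on replicates 2 and 3 with LDM in Cy5 and Y47H9C.1 on the other arrays. The median over the measured genes was 1.32, 1.08 and 1.62 with LDM in Cy5, and 1.39, 1.07 and 1.04 with LDM in Cy3. Replicate 3 with LDM in Cy5 was thus the array with the highest median, and replicate 3 with LDM in Cy3 that with the lowest. With LDM in Cy5, however, the median of replicate 2 lacks Y47H9C.1 and that of replicate 3 lacks K08D8.6, so the medians cover different genes. irg-4 and C29F3.7, measured on all arrays, were lowest on replicate 2 with LDM in Cy3 (1.01 and 0.64). The ratio of Y47H9C.1 exceeded that of irg-4 on 5 of 5 arrays, by 0.32 ± 0.18 (SD) on the log2 scale. It also exceeded that of K08D8.6 on 4 of 4 arrays, by a mean of 0.79. Over the 6 pairs of genes, Pearson's r of the ratios ran from -0.54 (C29F3.7 with K08D8.6, 5 arrays) to 0.69 (Y47H9C.1 with K08D8.6, 4 arrays), and it was 0.64 between irg-4 and C29F3.7 (6 arrays). The ratios of an array share its dyes and its loess curve.

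Both dye orientations were set apart for each gene. The mean log2 ratio of irg-4 was 1.31 with LDM in Cy5 and 1.18 with LDM in Cy3, and that of Y47H9C.1 was 1.67 and 1.57 in the same order of arrays. K08D8.6 had 0.62 with LDM in Cy5 and 0.77 with LDM in Cy3. C29F3.7 had the widest gap, with 1.56 and 0.98. The dye effect, fitted as the distance of each orientation from the mean of both, was 0.06, 0.29, 0.05 and -0.08 for irg-4, C29F3.7, Y47H9C.1 and K08D8.6, with standard errors of 0.129, 0.141, 0.148 and 0.183. In limma 0.025% of all genes passed the threshold for the dye effect, and 0 of the 4 genes did. Nothing is read from this count, since the choice of the genes by their ratios on arrays of both orientations favours a small dye effect.

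Normalization within arrays moved the ratios by different amounts. Before loess, the log2 ratios of irg-4 were 1.32, 1.58 and 1.24 with LDM in Cy5 and 0.72, 0.50 and 0.43 with LDM in Cy3. Those of C29F3.7 were 0.60, 2.03 and 1.15, and 0.58, 0.16 and 0.28 on the same arrays. For both genes the arrays with LDM in Cy3 thus started lower and were moved up by loess. The unmarked spots of Y47H9C.1 were between 0.59 and 1.17 before loess. For K08D8.6 they were 0.29, 0.72, 0.10, 0.63 and, on LDM in Cy3 replicate 3, -0.37. The sign of K08D8.6 on that array thus depended on the normalization, and it was 0.32 after centring the array on its median and 0.35 after loess. Before loess the ratio was above 0 on all measured arrays for irg-4, C29F3.7 and Y47H9C.1 and on 4 of 5 for K08D8.6.

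**Figure D3:**
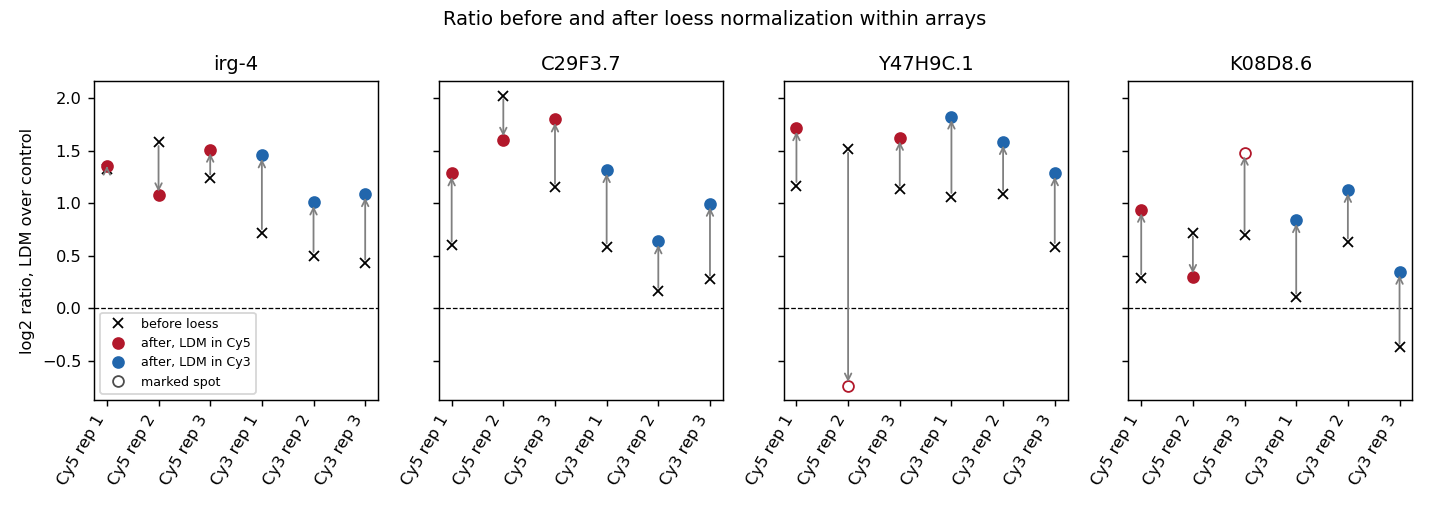
Log2 ratio of LDM over control before loess (crosses) and after it (circles) for each gene on each array, with arrows for the shift and open circles for marked spots. Loess lowered the unmarked spots on LDM in Cy5 replicate 2 and raised them on the other arrays, and K08D8.6 on LDM in Cy3 replicate 3 is the one unmarked spot that changed sign (-0.37 before loess and 0.35 after it).

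The other genes of the irg family were looked at beside irg-4. Of 7 listed, 6 were on the array and 3 could be tested: irg-7 (F40F4.6), irg-8 (ZK6.11) and irg-3 (F53E10.4). Limma and the rank product called 0 of them. An unadjusted limma p under 0.05 was reached by 1 (higher), and by 9.33% of all genes tested in either direction. The ratios were 0.37 for irg-7 (limma adjusted p = 0.526, above 0 on 5 of 6 arrays), 0.19 for irg-8 and -0.13 for irg-3 (limma adjusted p = 0.833, above 0 on 3 of 6 arrays). Their median of 0.19 compares with -0.03 over all genes tested. The probe of irg-5 (F35E12.5), which encodes another CUB-like protein, could not be tested, because only 1 array with LDM in Cy3 left it unmarked. It is named after its values were seen. On the 4 arrays where it was unmarked its intensities were 2570, 1663, 3867 and 10913 in LDM worms, against 720, 238, 1048 and 4681 in control worms (LDM in Cy5 replicates 1 to 3 and LDM in Cy3 replicate 3). The log2 ratios there were 2.60, 2.71, 2.63 and 1.95, with a mean of 2.47 ± 0.35 (SD, n = 4 arrays). On LDM in Cy3 replicates 1 and 2 both channels were near the local background, with 161 and 156 in LDM worms and 159 and 148 in control worms. irg-1 (C07G3.2), untested for the same lack of unmarked spots, had ratios of 0.09 on 1 array with LDM in Cy5 and 0.39, 0.74 and 0.66 with LDM in Cy3.

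A wider list of genes known for their response to infection held 18 genes, of which 16 were on the array and 13 could be tested. Limma called 0 of them in either direction, 4 had an unadjusted p under 0.05 (3 above and 1 below control), and the rank product called 1, which was higher. Over all genes tested the shares in either direction were 0.376% by limma, 9.33% at an unadjusted limma p under 0.05 and 1.54% by rank product. The list's median was 0.13, against -0.03 over all genes tested. Its range was -0.49 to 1.64, and 9 of 13 were above 0. The gene at the top was F55G11.2, which belongs to a cluster of CUB-like genes on chromosome IV. Its log2 ratios were 1.95, 3.59 and 1.46 with LDM in Cy5 and 0.87, 1.44 and 0.55 with LDM in Cy3. All 6 were above 0, and the lowest with LDM in Cy5 was just above the highest with LDM in Cy3. Its estimate was 1.64 (standard error 0.274), with a percentage of false positives of 9.44e-06 by rank product and an adjusted p of 0.0801 in limma. Without LDM in Cy5 replicate 2 the limma adjusted p was 0.0172 at an estimate of 1.33, and without LDM in Cy5 replicate 3 it was 0.0331 at 1.86. Leaving out any other array gave 0.301 to 0.389.

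The other tested infection response genes lay between -0.49 and 0.48. Nothing is read from their place below the 4 genes, since the 4 genes were chosen by their ratios. The list also holds irg-5, which could not be tested. F55G11.7, of the cluster of F55G11.2, had a ratio of 0.48 and was above 0 on 6 of 6 arrays (limma adjusted p = 0.422). dod-24 (C32H11.12), another CUB-like gene, had 0.42, and dod-22 (F55G11.5) had 0.27. Ratios of the lysozymes lys-7 (C02A12.4) and lys-2 (Y22F5A.5) were 0.31 and -0.06, and that of T24B8.5, a widely used reporter of PMK-1 activity, was -0.34. The lowest was spp-1 (T07C4.4), a saposin-like protein, with -0.49 and below 0 on 6 of 6 arrays (limma adjusted p = 0.471).

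Genes of the pathways that act on such effectors were measured too. Of 12 listed regulators 11 could be tested, and 0 passed limma or the rank product (0.376% and 1.54% over all genes tested). At an unadjusted limma p under 0.05 there was 1, higher, against 9.33% of all genes tested in either direction. The median of the 11 regulators was 0.20, against -0.03 over all genes tested, and 10 of 11 were above 0. The highest was pmk-1 (B0218.3), the p38 MAP kinase, with 0.55 (limma adjusted p = 0.393, above 0 on 4 of 5 arrays). Its upstream kinase sek-1 (R03G5.2) was the lowest, with -0.09 (limma adjusted p = 0.882). Ratios of tir-1 (F13B10.1), the adaptor at the head of the cascade, and of atf-7 (C07G2.2), a transcription factor at its end, were 0.29 and 0.08. The GATA factor gene elt-2 (C33D3.1) had 0.19.

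**Figure D4:**
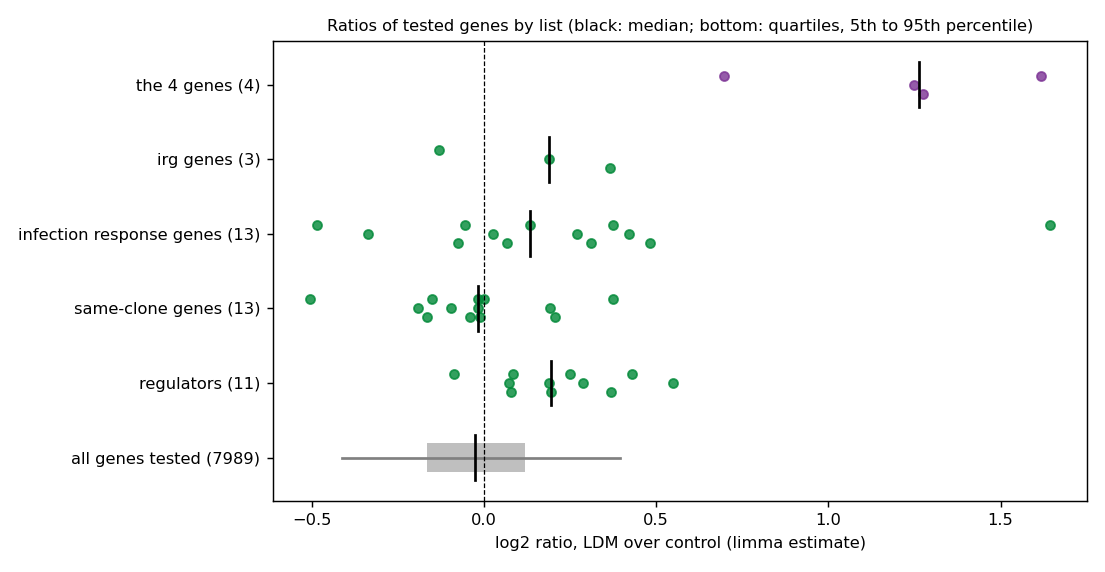
Log2 ratio of LDM over control for the 4 genes and for the tested members of each list, each point 1 gene, with the median as a black line; the bottom bar gives quartiles and the line percentiles of all 7989 genes tested. The 4 genes range from 0.70 to 1.62, and F55G11.2, at 1.64, lies above them, while the other tested list genes lie below them. Nothing is read from this order, since the 4 genes were chosen by their ratios. Genes that could not be tested, such as irg-5, are not shown.

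Neighbours in the genome had ratios closer to 0 than the 4 genes. Nothing is read from this, since the 4 genes were chosen by their ratios. The 29 other genes on the array whose sequence names show the same clones as the 4 genes gave 13 that could be tested. Limma and the rank product called 0 of them (0.376% and 1.54% over all genes tested). At an unadjusted limma p under 0.05 there was 1, higher, against 9.33% of all genes tested in either direction. The median of the 13 genes was -0.02, against -0.03 over all genes tested, and 10 of 13 were below 0. Highest was K08D8.5, a CUB-like gene of the clone of K08D8.6, with 0.37 (limma adjusted p = 0.413, above 0 on 6 of 6 arrays). K08D8.5 was the gene at an unadjusted limma p under 0.05, and it is also counted in the list of infection response genes. Lowest was clec-230 (C29F3.5), a C-type lectin gene, with -0.51 (limma adjusted p = 0.595, above 0 on 0 of 5 arrays). By gene order in the RefSeq table of WBcel235, the nearest tested genes on either side of irg-4 were col-130 (F08G5.4, a collagen gene), with -0.00, and C25G4.2, with 0.15. Beside C29F3.7 stood clec-230 and T06E6.1, the second with 0.09. Beside Y47H9C.1 stood pgrn-1 (T22H2.6) with 0.08 and the adjacent dhhc-2 (Y47H9C.2) with 0.19. For K08D8.6 they were clec-187 (ZK896.6) with -0.23 and K08D8.3 with -0.01. The limma adjusted p of these 8 genes lay between 0.595 and 0.9995. Between irg-4 and K08D8.6 lie 81 protein-coding genes, of which 33 could be tested. None was called by limma, and 1 was called by rank product (1.54% over all genes tested). An unadjusted limma p under 0.05 was reached by 4, and by 9.33% of all genes tested. The median of the 33 genes was -0.06.

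The genes whose ratios followed those of the 4 genes most closely from array to array had mean ratios between -0.21 and 0.30 themselves. Over 6 arrays and 6490 genes these were, for irg-4, T13G4.4 (Pearson r = 0.988), JC8.4 (0.973) and manf-1 (Y54G2A.23, 0.966), with mean log2 ratios of -0.01, -0.03 and -0.09. For C29F3.7 they were csn-3 (Y38C1AA.2, 0.974), ptr-1 (C24B5.3, 0.969) and smg-4 (F46B6.3, 0.968), with ratios of -0.16, -0.07 and -0.07. Over 5 arrays Y47H9C.1 was followed by prmt-9 (T23B5.1, 0.999), sym-1 (C44H4.3, 0.995) and F45E12.5 (0.992), with ratios of 0.13, -0.08 and -0.21. K08D8.6 was followed over 5 arrays by Y55F3AM.11 (0.989), bus-5 (F53B1.4, 0.987) and jnk-1 (B0478.1, 0.985), with ratios of 0.30, -0.18 and 0.10. A correlation above 0.9 was reached by 34 genes for irg-4, 22 for C29F3.7, 131 for Y47H9C.1 and 73 for K08D8.6. Only genes unmarked on all 6 arrays were compared, so Y47H9C.1 and K08D8.6 could not appear as followers. Neither irg-4 nor C29F3.7 was among the closest 3 of any other of the 4 genes. With so few arrays these values describe likeness and no more.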

How the data were processed

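Whole-worm RNA of LDM and control worms was hybridised to 6 two-colour arrays with exchanged dyes. As deposited, the scanner output gives the foreground and background intensity of each spot in Cy3 and Cy5, without background subtraction, and the percent of its pixels at the scanner's ceiling, which was 0 for the 4 genes. The authors' series table, as deposited, holds normalised log2 ratios that already run as LDM over control (medians -0.0076 to 0.00095; loess and Aquantile in limma per the methods), and was an alternative here. The deposited files name no genome build, and promoters and proteins were not analysed here.

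Intensities of 23232 spots per array (742 control or empty) were normalised in limma 3.58.1 (R 4.3.3) with normexp (offset 50), global loess over gene spots left unmarked by the image software (code 3), and Aquantile. What the mark means was read from the values. The model held an LDM and a dye effect. A probe needed 2 unmarked arrays per orientation, and a gene took its brightest tested probe. The threshold was a Benjamini-Hochberg adjusted p of 0.05. The rank product, the methods' test, was computed from a gamma approximation, with a percentage of false positives under 0.05. Both were run on simulated ratios with independent noise of equal SD for all genes and arrays. The real arrays correlated between -0.35 and 0.42, so the simulation does not show how either tool behaves on them. Names, chromosomes and gene order came from the RefSeq gene table of WBcel235 (21382 probes matched by sequence name). The number of arrays limits the precision.

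Named genes are the 4 genes, in each list up to 4 that passed limma and then the highest and lowest tested, and the 3 genes closest to each of the 4 by Pearson r, besides further list genes given by value. The genes and lists were chosen with earlier results of these data known. The fit was repeated with other ways of correcting the background and of normalizing within and between arrays, on the authors' ratios, with marked spots, without dim probes, without the dye effect, with arrays of one number blocked or averaged, with weights per array, over all probes of a gene, with a term for the day of image analysis, by rank product, and without each array in turn. The median pixel intensity was added after seeing the data.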

Additional observations from a re-analysis of the deposited data

Results flagged for a closer look

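On LDM in Cy3 replicate 1 the level of irg-4 stood apart from the other 5 arrays in both channels, with normalised log2 levels of 11.89 in LDM worms and 10.43 in control worms. The gap to the nearest other array was 0.635 of the whole range in LDM worms and 0.716 in control worms, above Dixon's critical value for 6 samples. Of 12 groups of values tested this way these were the ones picked out, and chance alone picks about 1 in 20. Both come from the same spot on the same array, so they are not independent of each other. The log2 ratio on that array, 1.46, lay within those of the others. The pixels of the spot varied more than their mean, with a pixel SD of 6844 around 6494 in LDM worms and of 4271 around 3969 in control worms. Without that array the log2 ratio of irg-4 was 1.18.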

How the results depend on the processing

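The log2 ratios of the 4 genes stayed above 0 under all 22 alternatives. Nothing is read from this, since these ratios chose the genes and some alternatives could not move them. With 1 probe, unmarked on 6 arrays, irg-4 kept 1.25 with marked spots, without dim probes, without the dye effect, and with arrays blocked or averaged. The ratios ran between 1.18 and 1.53 for irg-4, 1.10 and 1.39 for C29F3.7, 1.22 and 2.02 for Y47H9C.1, and 0.54 and 0.96 for K08D8.6. Scale normalization gave 1.53 for irg-4 and 2.02 for Y47H9C.1, plain background subtraction gave 1.84 for Y47H9C.1, and keeping marked spots gave 1.22 for it, which brings in its spot at -0.74. Leaving out each array gave 1.18 to 1.31, 1.19 to 1.36, 1.55 to 1.69 and 0.54 to 0.86 for the 4 genes in the same order.

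The number of genes called over the whole array moved far more than these ratios. Against 30 (25 higher and 5 lower), it was 0 with marked spots kept (404 with an unadjusted p under 0.05, and a rank product calling 23 higher and 36 lower), 8 (7 and 1) after averaging same-numbered arrays, 1119 (464 and 655) with array weights, 7 (6 and 1) with a term for the day of image analysis, and 123 (90 and 33) by rank product. Scale normalization gave 26 higher and 10 lower. Only LDM in Cy3 replicate 1 had another day of image analysis. The term for the day thus gave the same count, and the same ratios of the 4 genes, as leaving out that array. Marked spots were left out of the loess fit. Their array medians of the log2 ratio ran from -3.22 to 2.67, against -0.04 to 0.02 for unmarked spots. With same-numbered arrays as a replicate block the count was 24. Deviations from the mean of an orientation correlated at -0.04, 0.39 and 0.22 for same-numbered arrays. For differently numbered arrays they correlated between -0.38 and 0.03. Whether the numbers pair the arrays was not tested. The block left the 4 genes at 1.25, 1.27, 1.62 and 0.68. Without LDM in Cy5 replicate 1, 2 or 3 the count was 5, 51 or 41, and without LDM in Cy3 replicate 1, 2 or 3 it was 7, 6 or 8, a range of 5 to 51. Array weights also called 3 infection response genes, 1 irg gene and 3 regulators, and turned sek-1 (R03G5.2) to 0.0056, against -0.09. The rank product called 1 infection response gene, and leaving out an array called 0 to 1. Apart from these named changes the causes were not tested.

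With 6 arrays, on which as few as 37.6% of gene spots were unmarked, genes such as irg-5 could not be tested.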
